A study of Mus musculus with 9 samples.

Results

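Gene expression was compared between primary mouse macrophages on either of a pair of zirconium-based metallic glasses, taken as 1 group of 6 libraries, and the same cells on commercially pure titanium (cpTi), with 3 libraries. A metallic glass is an alloy whose atoms are frozen without a crystal lattice, and cpTi is a standard metal of bone implants. The glass group held 3 libraries from cells on Zr61Cu25Al14 (called Ta0 after its lack of tantalum) and 3 from cells on Zr58Cu25Al14Ta3 (called Ta3). All 9 libraries came from bone marrow-derived macrophages of wild type genotype after 48 h on the material. The labels give neither strain, sex nor age of the mice, and do not say whether animals or cultures differed between libraries of a material; the p-values reflect variation among these 9 libraries alone, part of which may be technical. Because each library came from cells on 1 of these 3 metals, a lower level on the glasses cannot be told apart from a higher level on cpTi. Of 54532 genes in the deposited table, 10858 had at least 1 FPKM (fragments per kilobase of gene, on the authors' library scale) in at least 3 of the 9 libraries and were tested. A further 14338 genes had a value above 0 but did not pass this filter, and 29336 were at 0 in each library. At the edge of the filter, the gene just inside, Gm17195, had 1.000783 FPKM in the third of its libraries, counted from the highest, and the gene just outside, Clec11a, had 0.998713 FPKM.

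Macrophages sense microbes, particles and damaged tissue through pattern recognition receptors. Many of these receptors feed the transcription factor NF-kB, which drives genes for cytokines, chemokines and its own inhibitors. Another arm, through interferon regulatory factors and secreted interferon, turns on antiviral genes. In cells next to an implant these programmes are studied because they shape inflammation and later bone healing around the metal.

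Libraries held 15517877 to 18689963 reads, rebuilt from the deposited values. Ta0 replicate 1 and Ta3 replicate 3 stood apart from the rest: only 9.77% and 7.89% of their genes with few reads had a single read, they had the highest shares of ribosomal protein reads, and the first principal component, with 72.0% of the variance, set them against Ta3 replicate 2 and cpTi replicate 3. This component separated libraries of the same material. Calls that were lost without both of these libraries are given with the adjusted p of that fit. Each fold change below compares the glasses with cpTi as a difference in log2(FPKM + 1), given with its SE, and is smaller than the true change for low genes.

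Macrophages on the glasses had lower levels of inflammatory and interferon-induced genes than those on cpTi, and few genes were higher. With limma, 91 genes were lower on the glasses (0.838% of those tested) and 9 were higher (0.0829%), 100 in all (0.921%) at an adjusted p under 0.05. Without Ta0 replicate 1 and Ta3 replicate 3, the counts were 68 lower, 65 of them among the 91, and 5 higher. On another scale, with all libraries brought to a common FPKM total, the median fold change of all genes was -0.31, and 20 genes were lower, 17 of them among the 91, and 1 was higher. For each of the 100 genes the 6 glass libraries lay entirely on one side of the 3 cpTi libraries. Such a lack of overlap, lower on the glasses, was seen for 399 of all genes tested (3.67%), and higher on the glasses for 161 (1.48%), or 5.16% in all. The median fold change of all genes tested was 0.01 on the authors' scale, with 5210 of the 10858 below 0 and 5648 above 0. These counts, and the 0.838% lower and 0.0829% higher, are the background for each gene list below. The lists and their members were chosen with earlier results of these data known, so their shares are descriptive and not independent of the data. Of the 91 lower genes, 69 differed by at least 1 on the log2 scale and 10 by at least 2, with a range of -3.83 to -0.70. The higher genes ranged over 0.64 to 1.77. For 12 of the lower genes, Nos2, Csf3, Gm22121 and Gm43181 among them, all 6 glass libraries were below 1 FPKM. These 12 belong to the 19 tested genes that reached the filter through the cpTi libraries alone. For them the filter itself required a higher cpTi level, so these calls are not independent of the filter. A further 152 genes reached it through the glass libraries alone, and 0 of the 9 higher genes were among these. The gene just inside the threshold was Hp (adjusted p = 0.0487) and the one just outside it was Parp9 (adjusted p = 0.0598). In what follows, genes that fell or rose are those called lower or higher on the glasses than on cpTi. No change over time was measured.

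**Figure D1:**
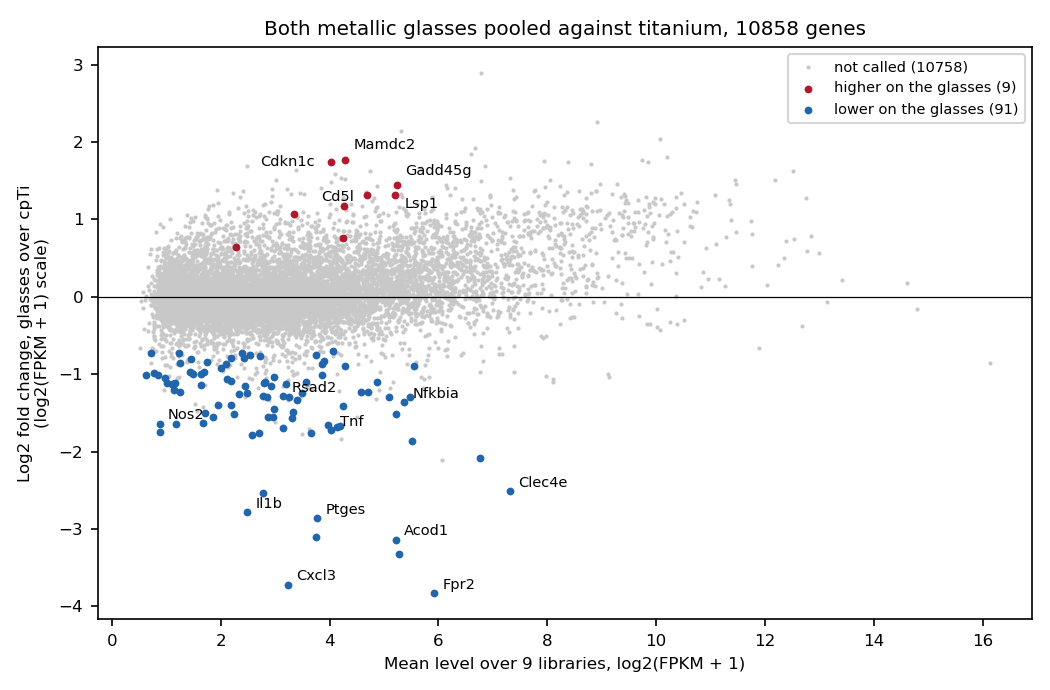
Log2 fold change of each of the 10858 genes tested, glasses over cpTi, against its mean level over 9 libraries on the log2(FPKM + 1) scale. Red points are the 9 genes higher on the glasses and blue points the 91 lower genes; the lower genes reach -3.83 (Fpr2), whereas the higher genes end at 1.77 (Mamdc2).

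The promoter sequences of a few of these genes show the kinds of regulatory letters that lie before their starts. The 250 bases before the RefSeq start (build GRCm38.p6) were searched on both strands for a form of the interferon-stimulated response element, GAAA then any 2 bases then GAAA, and for a form of the kappa B site that NF-kB binds, GGGA then any 2 bases then TTCC. Of the 91 lower genes, 70 had a RefSeq promoter entry. The interferon letters were in 13 of these 70 (18.6%), against 274 of the 7870 tested genes with an entry (3.48%) and 978 of all 32851 entries (2.98%). The kappa B letters were in 7 of the 70 (10%), against 121 of the tested genes (1.54%) and 397 of all entries (1.21%). Of the 9 higher genes, 5 had an entry and none of these 5 held either motif. A match describes letters only. Below are a chemokine gene and an NF-kB inhibitor gene with kappa B letters, a pair of antiviral genes with interferon letters, and Cd5l, a higher gene without either, with matches in capitals, 5′ to 3′ on the strand of the gene.
Cxcl3 (plus strand, chr5:90785851-90786100): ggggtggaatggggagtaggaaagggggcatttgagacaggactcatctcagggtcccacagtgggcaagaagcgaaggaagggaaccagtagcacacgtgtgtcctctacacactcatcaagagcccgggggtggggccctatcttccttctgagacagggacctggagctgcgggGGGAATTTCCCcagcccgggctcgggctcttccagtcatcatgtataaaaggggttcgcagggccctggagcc
Nfkbia (minus strand, chr12:55492648-55492897): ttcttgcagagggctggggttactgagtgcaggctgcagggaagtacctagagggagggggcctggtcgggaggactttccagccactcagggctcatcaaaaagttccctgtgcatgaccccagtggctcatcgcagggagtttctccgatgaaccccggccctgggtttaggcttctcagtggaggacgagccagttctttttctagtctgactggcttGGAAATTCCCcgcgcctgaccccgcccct
Rsad2 (minus strand, chr12:26456453-26456702): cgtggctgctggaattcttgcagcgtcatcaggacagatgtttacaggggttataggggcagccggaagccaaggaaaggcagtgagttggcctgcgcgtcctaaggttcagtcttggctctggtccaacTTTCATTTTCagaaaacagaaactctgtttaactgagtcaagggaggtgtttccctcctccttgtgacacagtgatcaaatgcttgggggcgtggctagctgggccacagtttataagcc
Ifit3 (plus strand, chr19:34583279-34583528): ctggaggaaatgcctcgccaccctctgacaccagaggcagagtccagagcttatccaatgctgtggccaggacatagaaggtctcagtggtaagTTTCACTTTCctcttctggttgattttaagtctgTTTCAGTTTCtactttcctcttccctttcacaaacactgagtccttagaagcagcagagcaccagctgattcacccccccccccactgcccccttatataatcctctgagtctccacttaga
Cd5l (plus strand, chr3:87357631-87357880): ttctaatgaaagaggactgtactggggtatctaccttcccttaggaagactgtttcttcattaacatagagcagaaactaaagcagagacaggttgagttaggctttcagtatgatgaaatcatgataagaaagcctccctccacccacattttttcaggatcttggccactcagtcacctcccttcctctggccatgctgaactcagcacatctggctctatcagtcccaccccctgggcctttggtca
In Cxcl3 the capitals cover a pair of overlapping matches, 1 on each strand, and in Ifit3 they mark separate matches. The match of Nfkbia begins 29 bases before the start, and that of Rsad2 120 bases before it. Cxcl2, the neighbour of Cxcl3, also held kappa B letters. Of the lower genes with an entry, 1 of 4 in the NF-kB list held them, Nfkbia, and 0 of 3 in the inflammatory cytokine list. The other lower genes with kappa B letters were Ifit2, Ms4a4a, Nab1 and Slc6a12. Interferon letters were in all 4 lower GTPase genes with an entry, Gbp2, Gbp3, Gbp7 and Irgm1. They were also in 5 of the 8 lower genes of the interferon list with an entry, namely Ifit1, Ifit3, Ifit3b, Rsad2 and Trim30a.

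Among secreted signals, the neutrophil-attracting chemokine genes Cxcl3 and Cxcl2 fell, as did the cytokine genes Il1b and Tnf. Cxcl3 had 0.409, 0.719 and 1.93 FPKM as the lowest, median and highest of the 6 glass libraries, against 23.5, 30.2 and 16.9 FPKM in the cpTi libraries. Cxcl2 had 1.73, 2.6 and 4.14 FPKM on the glasses and 33.3, 36.2 and 25.3 FPKM on cpTi. Every glass library was several times below every cpTi library for both genes. Their log2 fold changes were -3.72 ± 0.26 (adjusted p = 0.000217) and -3.10 ± 0.21 (adjusted p = 0.000202), and by the means they were 26.7-fold and 11.2-fold lower. Il1b encodes interleukin 1 beta, a cytokine that the inflammasome matures. It had 0.292, 0.924 and 1.27 FPKM on the glasses and 13, 15 and 8.3 FPKM on cpTi, 13.6-fold lower by the means (-2.78 ± 0.22, adjusted p = 0.000483). For Tnf, the gene of tumour necrosis factor, the values were 6.14, 8.15 and 10.2 FPKM on the glasses and 30.6, 33.6 and 24.8 FPKM on cpTi, again with a wide gap between the groups (-1.73 ± 0.17, adjusted p = 0.00197). With a common FPKM total the adjusted p of Tnf was 0.0703. Csf3, which encodes the granulocyte growth factor G-CSF, was low throughout, with 0.306, 0.493 and 0.796 FPKM on the glasses and 3.28, 2.49 and 1.87 FPKM on cpTi (-1.20 ± 0.17, adjusted p = 0.00964). Without cpTi replicate 1, the adjusted p of Csf3 was 0.0839. With a pseudocount of 0.1 in place of 1 its fold change was -2.09.

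Of 12 tested inflammatory cytokine genes, 5 fell and none rose, with a median of -0.52 beside 0.01 for all genes. The other members that fell were Il1a, which encodes interleukin 1 alpha, with 15.4 ± 2.69 FPKM on the glasses against 38 ± 11.9 FPKM on cpTi (SD, n = 6 and 3), and Tnfsf9, which encodes the ligand of the T cell receptor 4-1BB, with 2.68 ± 0.437 FPKM against 5.33 ± 0.612 FPKM. Both calls were marginal, since the adjusted p without cpTi replicate 1 was 0.281 for each, and that of Il1a without Ta0 replicate 1 and Ta3 replicate 3 was 0.126. At the other end of the list, Il18 had a fold change of 0.45 and Il15 0.20, neither past the threshold. Among 18 chemokine genes only Cxcl2 and Cxcl3 passed, and the median was -0.35. Cxcl1, a further neutrophil chemokine, had a fold change of -1.71 (adjusted p = 0.0734) and did not pass. Il6 and Il10 were too low to be tested. Il6 had at most 0.148 FPKM in the glass libraries and at most 0.899 FPKM in those of cpTi, and Il10 was above 1 FPKM in 1 library, Ta3 replicate 3, at 3.59 FPKM.

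Several receptors for microbial products also fell. Fpr2 and Fpr1 encode receptors for formylated bacterial peptides. Fpr2 had 3.29, 7.77 and 22.3 FPKM on the glasses, against 152, 239 and 79.1 FPKM on cpTi, and Fpr1 had 2.94, 9.32 and 14.6 FPKM, against 93.7, 139 and 55.4 FPKM. The cpTi libraries spread widely for both genes, with replicate 2 highest and replicate 3 lowest, but stayed above each glass library. Their fold changes were -3.83 ± 0.56 (adjusted p = 0.0136) and -3.32 ± 0.44 (adjusted p = 0.0083). Without cpTi replicate 2 the adjusted p was 0.106 for Fpr2 and 0.0695 for Fpr1. The annotated gene Fpr3 overlaps Fpr2 on the same strand, so reads of these related genes may have been split by the authors' counting. Tlr2, the receptor for bacterial lipoproteins, had 7.78, 8.66 and 14.5 FPKM on the glasses and 30.7, 32.5 and 34.1 FPKM on cpTi (-1.66 ± 0.20, adjusted p = 0.00529). It passed whichever library was left out, but not with a common FPKM total (adjusted p = 0.155). Clec4e, the glycolipid receptor Mincle, had 29.3, 61.7 and 92.6 FPKM on the glasses and 343, 528 and 195 FPKM on cpTi (-2.51 ± 0.41, adjusted p = 0.0239). Its call was lost without cpTi replicate 1 (adjusted p = 0.161) and without 3 other single libraries, and the adjusted p without Ta0 replicate 1 and Ta3 replicate 3 was 0.0631. These were the 4 that fell of 24 tested pattern and peptide receptor genes, whose median was -0.57. Of the 24, 21 had a fold change below 0, beside 5210 of all 10858 genes tested. Trem2, a lipid receptor of tissue macrophages, had 1.07 and did not pass.

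Several inhibitors that NF-kB itself induces also fell. Nfkbia, which encodes the inhibitor IkB alpha, had 18, 26.4 and 32.6 FPKM on the glasses and 70.3, 83.5 and 52.7 FPKM on cpTi (-1.36 ± 0.22, adjusted p = 0.0198). Irak3, a brake on Toll-like receptor signalling, had 4.11, 6.15 and 7.5 FPKM on the glasses and 15.2, 15.9 and 18.3 FPKM on cpTi (-1.33 ± 0.17, adjusted p = 0.00602). Nfkbie, which encodes IkB epsilon, had 2.24, 2.7 and 4.69 FPKM on the glasses, where Ta3 replicate 2 was the highest, and 7.35, 6.99 and 8.36 FPKM on cpTi (-1.15 ± 0.18, adjusted p = 0.0211). In none of the 3 genes did the groups overlap. Of 21 tested NF-kB subunit and feedback genes, 5 fell, with Birc3 and Nfkbiz as the others, and the median was -0.69. In this list 20 had a fold change below 0, beside 5210 of all 10858 genes tested. The subunit gene Rela had -0.15, not past the threshold, and Zfp36, which encodes an mRNA decay factor, was the only member above 0, at 0.19. The adjusted p without cpTi replicate 1 was 0.156 for Nfkbia, 0.0502 for Irak3 and 0.14 for Nfkbie. In that fit none of the 21 genes passed, nor did any with a common FPKM total. When Ta0 replicate 1 and Ta3 replicate 3 were left out, 4 members passed, and the adjusted p of Nfkbie was 0.0756. The gene Tmbim4 overlaps Irak3 on the opposite strand, and no strand setting is given in the sources used here, so reads of overlapping genes cannot be told apart.

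Enzymes that make inflammatory small molecules were among the genes that fell. Acod1 encodes the enzyme that makes itaconate, an antimicrobial metabolite of activated macrophages. It had 7.94, 9.02 and 12.5 FPKM on the glasses and 84, 107 and 78.6 FPKM on cpTi, 9.61-fold lower by the means (-3.14 ± 0.18, adjusted p = 0.000121). Ptges, the terminal synthase of prostaglandin E, had 2.39, 3.64 and 3.81 FPKM on the glasses and 28.7, 39.7 and 25.4 FPKM on cpTi, 9.18-fold lower (-2.86 ± 0.18, adjusted p = 0.000137). For both genes the spread among the 6 glass libraries was small beside the distance to cpTi. Nos2, the inducible nitric oxide synthase, had 0, 0.0755 and 0.175 FPKM on the glasses, or 0 to 9 reads, and 2.31, 2.2 and 2.58 FPKM on cpTi, or 160 to 249 reads (-1.64 ± 0.12, adjusted p = 0.000271). At such low levels the pseudocount sets the fold change of Nos2, which was -3.83 with a pseudocount of 0.1, and by the means Nos2 was 29.0-fold lower. Ass1, which regenerates arginine for nitric oxide synthesis, had 2.71, 3.48 and 6.55 FPKM on the glasses and 9.43, 10.9 and 12.1 FPKM on cpTi (-1.29 ± 0.22, adjusted p = 0.0275). Its adjusted p was 0.163 without cpTi replicate 2 and 0.108 without Ta0 replicate 1 and Ta3 replicate 3. Of 14 tested genes of arginine, nitric oxide and itaconate metabolism, these 3 fell, while the list's median was -0.01. Arg1, the arginase that competes for the same substrate, had 117, 442 and 741 FPKM on the glasses and 854, 1107 and 504 FPKM on cpTi (-1.03 ± 0.55, adjusted p = 0.84), with overlapping groups. Of 15 eicosanoid genes only Ptges passed, and the median was 0.01. Ptgs2, the inducible cyclooxygenase upstream of Ptges, had -0.70 (adjusted p = 0.087).

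**Figure D2:**
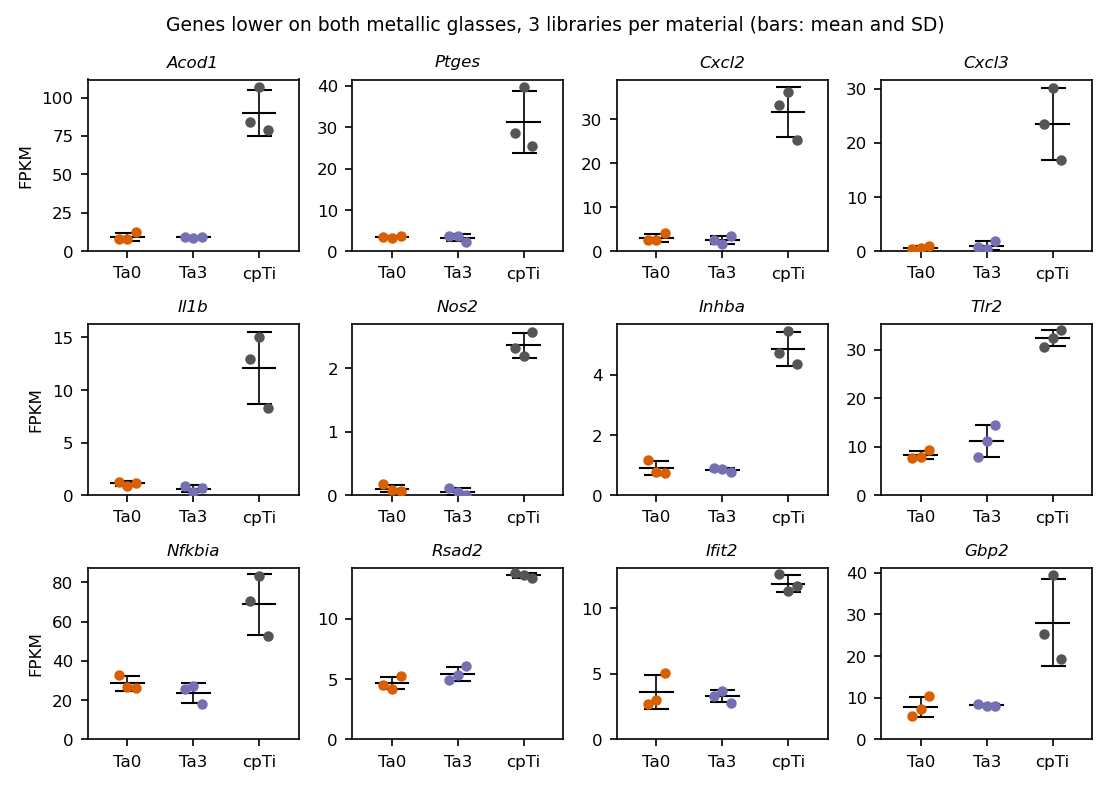
FPKM of 12 genes lower on the glasses, with 3 libraries per material as points and the mean and SD of each material as bars; each panel has its own axis from 0. In each panel the Ta0 and Ta3 points lie together and below the 3 cpTi points, as for Acod1 with 7.94 to 12.5 FPKM on the glasses and 78.6 to 107 FPKM on cpTi.

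Several interferon-induced antiviral genes fell. Of 38 tested genes of the type I interferon response, 10 fell and none rose, with a median of -0.84. Below 0 were 37 of the 38, beside 5210 of all 10858 genes tested. Rsad2, which encodes the antiviral enzyme viperin, had 4.21, 5.06 and 6.06 FPKM on the glasses and 13.8, 13.6 and 13.4 FPKM on cpTi (-1.28 ± 0.13, adjusted p = 0.00206). Ifit2, which encodes an antiviral protein of the IFIT family, had 2.72, 3.17 and 5.1 FPKM on the glasses and 12.6, 11.3 and 11.7 FPKM on cpTi (-1.56 ± 0.17, adjusted p = 0.00338). Both passed whichever library was left out, but with a common FPKM total the adjusted p was 0.299 for Rsad2 and 0.224 for Ifit2. Usp18, which removes the interferon-induced modifier ISG15 from proteins, had 2.92, 4.13 and 4.76 FPKM on the glasses and 9.82, 11.3 and 8.28 FPKM on cpTi (-1.12 ± 0.16, adjusted p = 0.00978), but its adjusted p without cpTi replicate 1 was 0.0854. The other members that fell were Ifit3, Ifit1, Ifit3b, Irf7, Cmpk2, Mx1 and Trim30a, with fold changes of -1.76 to -0.82. Reads of Ifit3 and Ifit3b, near copies of each other, may have been shared. Bst2, which encodes the antiviral membrane protein tetherin, was the only member above 0, at 0.24. The number of members that fell ranged over 2 to 9 when 1 library was left out, with 2 when cpTi replicate 1 was left out, while without Ta0 replicate 1 and Ta3 replicate 3 it was 7, with a fitted median of -0.77. Irf7, Ifit3b, Mx1 and Trim30a did not pass in that fit (adjusted p = 0.0624, 0.0976, 0.119 and 0.0756), where Oasl2 did. With a common FPKM total 1 member fell, and the median was -1.24, or -0.93 relative to the median of all genes.

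The interferon-inducible GTPases, proteins that attack vacuoles holding microbes, had the largest called share of any list. Of 9 tested genes 6 fell and the other three were also below 0, with a median of -0.98. Gbp2 had 5.65, 8.0 and 10.4 FPKM on the glasses and 25.3, 39.6 and 19.2 FPKM on cpTi (-1.65 ± 0.24, adjusted p = 0.0114). Gbp3 had 1.28, 1.92 and 2.89 FPKM on the glasses and 6.73, 9.34 and 5.81 FPKM on cpTi (-1.51 ± 0.21, adjusted p = 0.00963). Gbp7 had 0.765, 1.1 and 1.2 FPKM on the glasses and 3.3, 2.65 and 3.13 FPKM on cpTi (-0.98 ± 0.12, adjusted p = 0.00602). In all 3 genes the groups were apart. The others were Irgm1, Gbp6 and Gbp9, with fold changes of -1.02, -0.72 and -0.72. Because the Gbp genes are close relatives, their reads may be partly shared. None of the 9 passed without cpTi replicate 1, when the adjusted p of Gbp2 was 0.0829 and that of Gbp7 0.0735, and none passed with a common FPKM total. In the fit without Ta0 replicate 1 and Ta3 replicate 3, 5 members fell. Irgm1 and Gbp9 did not pass there (adjusted p = 0.181 and 0.0751), while Irgm2 did. Irf1, a transcription factor that interferon induces, had 8.79, 9.7 and 12.1 FPKM on the glasses and 17.3, 19.1 and 15.6 FPKM on cpTi (-0.75 ± 0.14, adjusted p = 0.0397), and its adjusted p was 0.275 without cpTi replicate 1 and 0.129 without Ta0 replicate 1 and Ta3 replicate 3. Among 590 tested genes that the deposited table annotates as transcription factors, Irf7 and Irf1 were the only ones that fell, and Pparg was the only one that rose.

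Outside these programmes, genes of redox balance, matrix remodelling and NAD metabolism held a few members each that fell. Slc7a11, a subunit of the cystine importer that feeds glutathione synthesis, had 0.955, 1.15 and 1.67 FPKM on the glasses and 5.11, 5.67 and 5.64 FPKM on cpTi (-1.55 ± 0.14, adjusted p = 0.00082). Gsr, the glutathione reductase, had 32.5, 35.2 and 40.1 FPKM on the glasses and 66.1, 77.5 and 58 FPKM on cpTi (-0.90 ± 0.16, adjusted p = 0.0341), with an adjusted p of 0.239 without cpTi replicate 1 and 0.12 without Ta0 replicate 1 and Ta3 replicate 3. They were the 2 that fell of 28 tested NRF2 targets and glutathione genes, whose median was -0.26. Mmp8, a collagenase, had 17.5, 20.3 and 32.5 FPKM on the glasses and 86, 99.8 and 73.9 FPKM on cpTi (-1.87 ± 0.23, adjusted p = 0.00571), and Lox, which cross-links collagen, had 1.47, 2.56 and 3.92 FPKM and 10.9, 9.43 and 13.4 FPKM (-1.76 ± 0.21, adjusted p = 0.00511). They were 2 of 22 tested matrix genes, with a median of -0.16. Mmp8 did not pass without cpTi replicate 1 (adjusted p = 0.057). Cd38, an enzyme that breaks down NAD, had 6.37, 9.5 and 12.5 FPKM on the glasses and 29, 30.3 and 34.7 FPKM on cpTi (-1.68 ± 0.19, adjusted p = 0.00404). Adora2a, which encodes an adenosine receptor, fell by less (-0.91 ± 0.16, adjusted p = 0.0306). Its adjusted p was 0.208 without cpTi replicate 2 and 0.0907 without Ta0 replicate 1 and Ta3 replicate 3. These were 2 of 21 tested genes of NAD, purine and adenosine metabolism, with a median of -0.17. With a common FPKM total the calls of Slc7a11, Lox and Cd38 were lost (adjusted p = 0.139, 0.230 and 0.224).

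Single members fell in further lists. Inhba, which encodes the subunit of activin A, had 0.747, 0.833 and 1.19 FPKM on the glasses and 4.71, 5.46 and 4.36 FPKM on cpTi (-1.63 ± 0.13, adjusted p = 0.000358), the only one of 19 tested secreted osteogenic and angiogenic factors to pass. Mefv, the gene of the inflammasome sensor pyrin, was the only one of 12 inflammasome genes to pass, at -0.87, but its call was lost in 6 of 9 fits that left out 1 library. Cfb, which encodes complement factor B, was the only one of 21 complement and Fc receptor genes, at -0.98. The metal transporter genes Slc39a4, for zinc import, and Slc25a37, for iron import into mitochondria, had fold changes of -1.05 and -1.28. They were the only genes to pass among 22 tested for metallothioneins, copper and zinc and among 16 for iron. Without cpTi replicate 1 the adjusted p was 0.165 for Mefv, 0.057 for Cfb, 0.0668 for Slc39a4 and 0.0625 for Slc25a37. H2-M2, a nonclassical MHC class I gene, had 0.872, 1.34 and 3.17 FPKM on the glasses and 14, 21.8 and 7.62 FPKM on cpTi (-2.54 ± 0.33, adjusted p = 0.0070, and 0.0646 without cpTi replicate 1). Hp, the gene of the haemoglobin-binding protein haptoglobin, had 22.7, 52.9 and 81.2 FPKM on the glasses and 201, 299 and 152 FPKM on cpTi (-2.09 ± 0.40), but its call was lost in 7 of 9 fits that left out 1 library and without Ta0 replicate 1 and Ta3 replicate 3 (adjusted p = 0.0508). Of the 91 lower genes 86 were protein coding. Among the others, Gm22121, annotated as a miRNA, had 0 reads in each glass library and 3, 1 and 4 reads on cpTi, at the limit of detection. It lies within Ublcp1 on the opposite strand. Gm32089 had 0.971, 1.9 and 2.51 FPKM on the glasses and 6.31, 9.81 and 4.32 FPKM on cpTi, and Gm43181, which lies within Fbxl5, had 0, 0.155 and 0.473 FPKM and 1.18, 1.81 and 1.01 FPKM. Both lost their calls in 7 of those 9 fits, and the adjusted p without Ta0 replicate 1 and Ta3 replicate 3 was 0.0966 for Gm32089 and 0.0756 for Gm43181.

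Only 9 genes were higher on the glasses, and they belonged to no single list. Cdkn1c, an imprinted gene that encodes a cyclin-dependent kinase inhibitor, had 17.1, 19 and 28.5 FPKM on the glasses and 6.51, 5.05 and 4.39 FPKM on cpTi, 3.81-fold higher (1.74 ± 0.19, adjusted p = 0.00338). Cd5l, which encodes a secreted inhibitor of apoptosis made by macrophages, had 26.2, 32 and 35.5 FPKM on the glasses and 12, 12.3 and 11.2 FPKM on cpTi, 2.63-fold higher (1.31 ± 0.15, adjusted p = 0.00381). These were the 2 higher genes that passed in all 9 fits that left out 1 library. Mamdc2 had the largest fold change, with 19.6, 24.4 and 32.4 FPKM on the glasses and 5.58, 3.89 and 11.2 FPKM on cpTi (1.77 ± 0.28, adjusted p = 0.0194). Gadd45g, a stress-induced regulator of growth arrest, had 36.7, 44 and 68.5 FPKM on the glasses and 18.4, 19.4 and 11.9 FPKM on cpTi (1.44 ± 0.23, adjusted p = 0.0237). Lsp1, an actin-binding protein of leukocytes, had 38, 45.9 and 49.8 FPKM on the glasses and 17.5, 13.8 and 21.4 FPKM on cpTi (1.31 ± 0.18, adjusted p = 0.0083). In each of them the lowest glass library was well above the highest cpTi library. Without cpTi replicate 1 the adjusted p was 0.156 for Mamdc2, 0.118 for Gadd45g and 0.0819 for Lsp1. The adjusted p of Mamdc2 without Ta0 replicate 1 and Ta3 replicate 3 was 0.0642.

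Among the remaining higher genes, Pparg, the nuclear receptor that governs lipid uptake, had 18.7, 21.3 and 23.6 FPKM on the glasses and 12.4, 12.4 and 11.2 FPKM on cpTi (0.76 ± 0.14, adjusted p = 0.0422). It was the only one of 24 tested PPAR, LXR and lipid storage genes to pass, with a list median of 0.20. Apoe and Lpl, which serve lipid transport and uptake, had fold changes of 0.98 and 0.80 and did not pass. Gpx3, a secreted glutathione peroxidase, had 14.5, 22.2 and 30.1 FPKM on the glasses and 10.4, 8.39 and 8.94 FPKM on cpTi (1.17 ± 0.22, adjusted p = 0.0483). Matk, whose kinase product holds Src family enzymes in check, had 9.24, 11.4 and 13.8 FPKM on the glasses and 4.92, 4.37 and 5.14 FPKM on cpTi (1.07 ± 0.16, adjusted p = 0.0162). Fam198b was the lowest of the 9, with 4.13, 4.42 and 5.02 FPKM on the glasses and 2.32, 2.24 and 3.03 FPKM on cpTi (0.64 ± 0.12, adjusted p = 0.0465). The groups did not overlap for any of these 4 genes, yet each call was lost without at least 1 library: the highest adjusted p was 0.261 for Pparg, 0.28 for Gpx3, 0.12 for Matk and 0.384 for Fam198b, without cpTi replicate 1, cpTi replicate 2, cpTi replicate 2 and cpTi replicate 1. Without Ta0 replicate 1 and Ta3 replicate 3 the adjusted p was 0.0923 for Pparg and Gpx3 and 0.108 for Fam198b. With a common FPKM total none of the 9 passed. Pparg and Lsp1 are overlapped on the opposite strand by Gm44079 and Prr33.

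**Figure D3:**
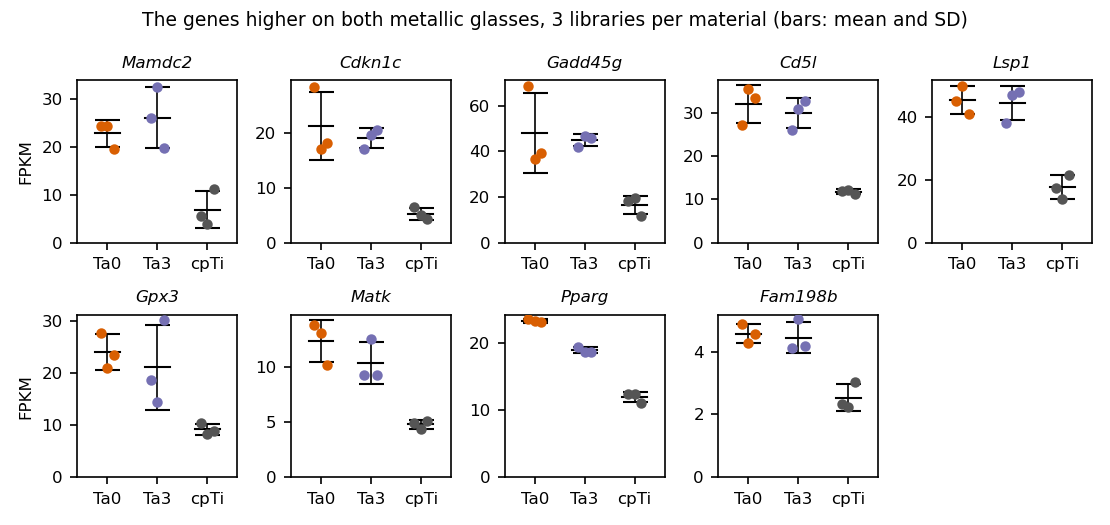
FPKM of the 9 genes higher on the glasses, with 3 libraries per material as points and the mean and SD of each material as bars; each panel has its own axis from 0. In each panel the 6 glass points lie above the 3 cpTi points, for Cd5l at 26.2 to 35.5 FPKM against 11.2 to 12.3 FPKM.

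Genes often used to describe macrophages on implants mostly did not pass. Spp1, which encodes the bone matrix protein osteopontin, was among the most abundant, with 2957, 8356 and 11989 FPKM on the glasses and 5176, 5903 and 3802 FPKM on cpTi (0.59 ± 0.59, adjusted p = 0.845). Mrc1, a marker of alternative activation, had 7.15, 10.7 and 15 FPKM on the glasses and 9.58, 6.73 and 15.4 FPKM on cpTi (0.11 ± 0.28), and its direction turned under other settings. Cd86, a costimulatory molecule, had 3.62, 6.36 and 9.03 FPKM on the glasses and 10.6, 12.9 and 7.87 FPKM on cpTi (-0.65 ± 0.26, adjusted p = 0.644). Within each of these genes the groups overlapped. Adgre1, which encodes the macrophage marker F4/80, had 78.1, 91.7 and 97.6 FPKM on the glasses and 149, 163 and 161 FPKM on cpTi. The groups were far apart, but the fold change of -0.83 ± 0.17 missed the threshold (adjusted p = 0.0834). Csf1r, the receptor for the macrophage growth factor, had -0.73 ± 0.28 (adjusted p = 0.60) with overlapping groups. Hmox1, the haem-degrading enzyme of the NRF2 response, had 194, 216 and 275 FPKM on the glasses and 290.1, 382 and 273 FPKM on cpTi (-0.50 ± 0.23, adjusted p = 0.747). Acp5, the osteoclast enzyme TRAP, had 41.4, 56.6 and 66.1 FPKM on the glasses and 94.5, 126 and 72.9 FPKM on cpTi (-0.77 ± 0.23, adjusted p = 0.312).

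Neither of the main metallothionein genes, whose proteins bind copper and zinc, passed. Mt1 had 102, 156 and 412 FPKM on the glasses and 110.1, 159.5 and 96.4 FPKM on cpTi (0.63 ± 0.47, adjusted p = 0.845). Mt2 had 0, 1.15 and 3.65 FPKM on the glasses and 0.285, 0.309 and 0.31 FPKM on cpTi (0.73 ± 0.47, adjusted p = 0.845). The zinc exporter gene Slc30a1 had 6.91, 7.51 and 11.9 FPKM on the glasses and 6.39, 6.66 and 7.55 FPKM on cpTi (0.21 ± 0.17, adjusted p = 0.845). The groups overlapped for all 3 genes, and the glass libraries of Mt1 and Mt2 spread far more widely than those of cpTi. Growth factor genes did not pass either, with -0.46 ± 0.17 for Osm, -0.55 ± 0.33 for Bmp2, -0.32 ± 0.32 for Vegfa and 0.16 ± 0.37 for Tgfb1, adjusted p = 0.552, 0.845, 0.845 and 0.921. Of the common reference genes, Actb had 0.33 ± 0.34. Gapdh was listed at only 1.36 to 17.8 FPKM on the glasses and 1.64 to 2.47 FPKM on cpTi, and as it has many pseudogene copies, its reads may have been lost or shared. Its fold change of 0.42 ± 0.58 is uncertain for that reason.

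Many lists held no gene past the threshold. None of the members passed among 19 tested genes of MHC class I presentation (median -0.21), 12 of MHC class II and costimulation (0.26), 12 of alternative activation (0.14) or 15 scavenger and apoptotic cell receptors (-0.03). The same held for 18 immediate early transcription factor genes (-0.07), 27 colony stimulating factor and cytokine receptors (-0.16) and 8 genes of the phagocyte NADPH oxidase (-0.02). It also held for 28 genes of glycolysis and hypoxia (-0.05), 23 of cholesterol and fatty acid synthesis (0.03), 30 of lysosomes (0.17) and 31 of the cell cycle (0.12). Stress and bone lists behaved likewise, with no call in 18 heat shock genes (0.04), 30 of the unfolded protein response (0.02), 17 osteoclast genes (-0.09), 20 integrins (0.01) or 15 S100 and granule genes (0.57). A miss does not show that these genes were alike. In the S100 list, single members ran from -1.61 (Wfdc21) to 2.04 (S100a1). Without Ta0 replicate 1 and Ta3 replicate 3, the median of the S100 list was 0.19 and its member Lcn2 fell (-1.67, adjusted p = 0.0427), while the medians of MHC class II (-0.02), immediate early factors (0.07), scavenger receptors (0.02) and osteoclast genes (0.10) turned sign. With a common FPKM total the medians above 0 in these lists turned below 0, except that of the S100 list (0.19). On that scale the median of all genes was itself -0.31. Relative to it, the medians stayed above 0 for MHC class II (0.19), cell cycle (0.16), lysosomes (0.10), alternative activation (0.08) and cholesterol and fatty acid synthesis (0.02). Those of heat shock (-0.0026), the unfolded protein response (-0.04) and integrins (-0.05) did not.

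**Figure D4:**
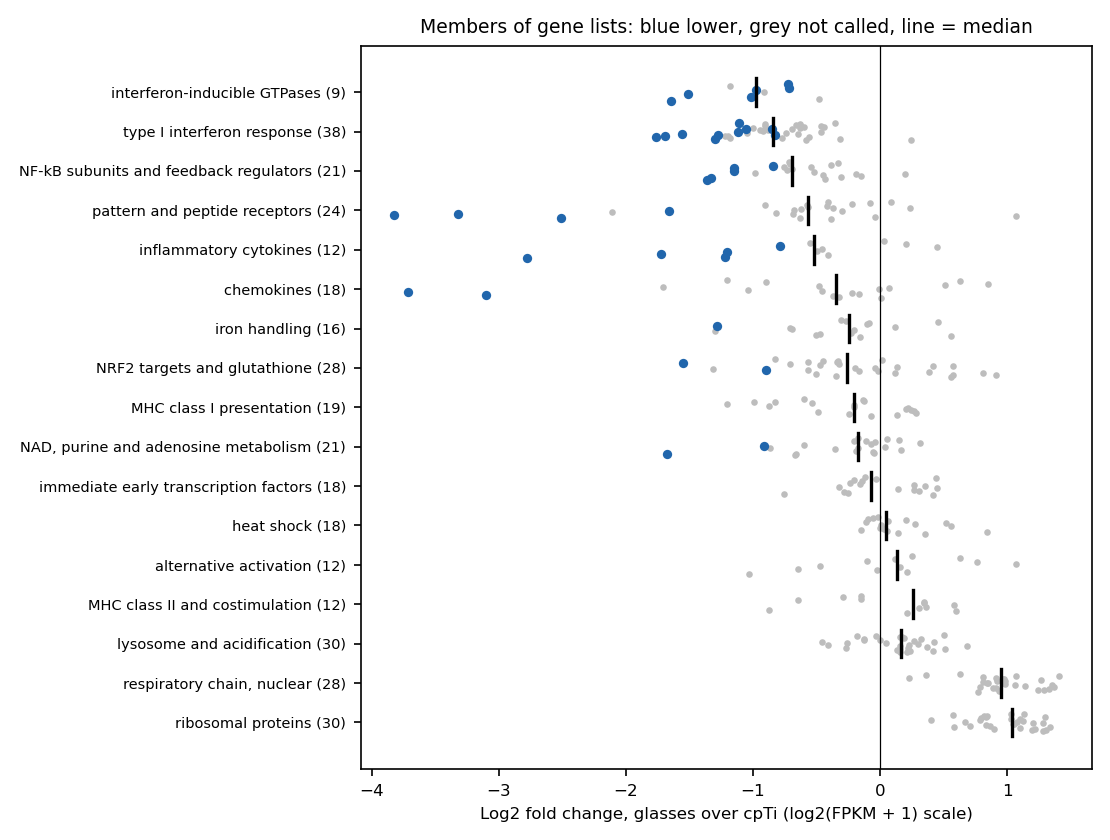
Log2 fold changes, glasses over cpTi, of the tested members of 17 gene lists, with the number tested in brackets, blue points for members that fell, grey for members not past the threshold and a black line at the list's median. The medians of the interferon, NF-kB and receptor lists lie left of 0, with a few members right of it. The ribosomal protein and respiratory chain lists lie right of 0 with no member past the threshold.

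Ribosomal protein genes and nuclear genes of the respiratory chain had medians near 1 on the log2 scale, but no member passed. All 30 tested ribosomal protein genes were above 0, with a median of 1.04, and all 28 respiratory chain genes, with a median of 0.95. The spread between libraries of 1 material was as large as this shift. Relative to the cpTi mean, the ribosomal list median reached 2.66 (Ta0 replicate 1) and 2.39 (Ta3 replicate 3), but -1.67 in Ta3 replicate 2, and it ran from -0.72 to 0.72 among the cpTi libraries. Without Ta0 replicate 1 and Ta3 replicate 3 the fitted median was 0.29 for ribosomal proteins and 0.18 for the respiratory chain. All 83 ribosomal protein genes together took 10.8 ± 6.02% of the reads on the glasses (SD, n = 6) and 5.46 ± 1.93% on cpTi (SD, n = 3), a difference of 5.32 percentage points (exact two-sided permutation p = 0.214, where 0.0238 is the smallest that 6 against 3 allows). The medians of the interferon, GTPase and NF-kB lists were below those of every cpTi library in all 6 glass libraries. Among the glass libraries the NF-kB median was broadly lower where the ribosomal share was higher. The part of library composition in this list was not tested. In Ta3 replicate 2, which had the lowest ribosomal share of all, the medians were -1.02 for the GTPases, -0.90 for the interferon list and -0.44 for the NF-kB list, and in Ta0 replicate 1, which had the highest, -1.09, -0.84 and -0.80. Genes encoded in mitochondrial DNA took 1.10 ± 0.227% of the reads on the glasses and 1.73 ± 0.351% on cpTi, a difference of -0.629 points (exact permutation p = 0.0476, n = 6 and 3). Without Ta0 replicate 1 and Ta3 replicate 3 this difference was -0.532 points (exact permutation p = 0.114), and without Ta3 replicate 3 alone it was -0.557 points (exact permutation p = 0.0714). Of the 12 tested mitochondrial genes none passed, 11 were below 0 and the median was -0.29.

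**Figure D5:**
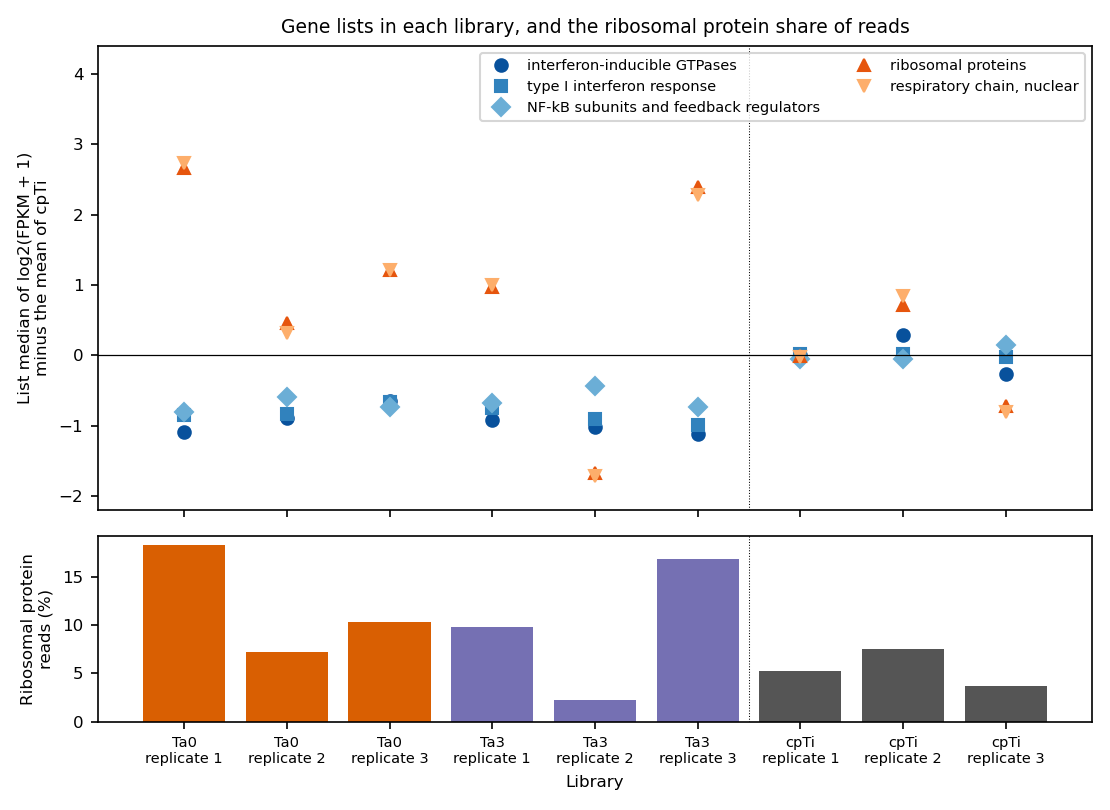
Upper panel, median of 5 gene lists in each library as the difference from the cpTi mean on the log2(FPKM + 1) scale; lower panel, percent of reads in ribosomal protein genes in the same library. The interferon and NF-kB lists lie below the cpTi libraries in all 6 glass libraries. Among these the NF-kB list is broadly lower where the ribosomal share is higher. The ribosomal and respiratory chain lists rise with that share, the ribosomal list up to 2.66 in Ta0 replicate 1 and down to -1.67 in Ta3 replicate 2.

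Macrophage markers were high in every library, and many markers of other cells stayed below 1 FPKM. All 8 macrophage markers were tested, with a summed level of 10941 to 40245 FPKM on the glasses and 16791 to 29342 FPKM on cpTi, most of it from Lyz2. The 6 endothelial markers summed to at most 1.2 FPKM in any library, and Ly6g, which defines neutrophils, was at 0 throughout. Monocyte markers summed to 18.5 to 49.0 FPKM on the glasses and 46.7 to 99.2 FPKM on cpTi. Ly6c2 was the highest on average over all libraries, but F13a1 was above it in most glass libraries. Of 6 monocyte markers 4 were tested, with 2 fold changes below 0, 2 above 0 and none past the threshold. Neutrophil markers summed to 13.5 to 442 FPKM on the glasses and 72.6 to 293 FPKM on cpTi, and 5 of 10 stayed below 1 FPKM. The sum came mostly from S100a8, with Retnlg next at 2.66 to 53.5 FPKM over all libraries. Erythroid markers reached 36.2 FPKM in a glass library and at most 0.695 FPKM on cpTi. Fibroblast, dendritic, mast, T and B cell lists each had at least 4 markers below 1 FPKM everywhere. The fibroblast list still summed to 30.7 to 44.6 FPKM on the glasses and 28.6 to 51.2 FPKM on cpTi. Most of this came from Dcn (8.79 to 21.5 FPKM over all libraries) and Col1a1 (2.37 to 20.1 FPKM). The part of monocytes in the genes that fell was not tested. In bulk RNA, fewer cells of a type and less RNA per cell cannot be told apart.

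The glasses could be pooled in so far as no gene differed between them past the threshold. In the fit with 3 group means, Ta3 minus Ta0 gave 0 genes (0%) at an adjusted p under 0.05, with 462 at an unadjusted p under 0.05, and voom on the rebuilt reads also gave 0. Among the 91 lower genes, 53 had a lower mean on Ta3 than on Ta0, and 2 had an unadjusted p under 0.05 between the glasses. One was Fpr2, with 7.77, 3.29 and 5.68 FPKM on Ta3 and 19.6, 7.77 and 22.3 FPKM on Ta0 (difference -1.36). The pooled fit counts a difference between the glasses as spread, so its calls favour genes in which the glasses are alike. The median absolute log2 difference between the glasses was 0.138 for the 91 lower genes and 0.233 for all genes tested. Likeness of the glasses in called genes is therefore partly a result of how they were selected. For Acod1 the values were 9.45, 8.87 and 9.17 FPKM on Ta3 and 7.94, 8.12 and 12.5 FPKM on Ta0 (difference -0.02), and for Ptges the difference was -0.08. Pparg had 19.5, 18.7 and 18.7 FPKM on Ta3 and 23.6, 23.3 and 23.1 FPKM on Ta0, so that these glasses did not overlap, but the difference of -0.29 did not pass. Against the same cpTi libraries, which the glasses share, Il1b had a fold change of -2.98 on Ta3 and -2.59 on Ta0, and Cd5l 1.27 on Ta3 and 1.36 on Ta0. With 3 libraries a glass, a miss between the glasses leaves differences of moderate size possible.

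Several of the genes called lie near each other in the genome (build GRCm38, positions from the deposited table). Of the 100 genes, 33 had another called gene within 1 Mb (33%), as had 1370 of all genes tested (12.6%). Ifit2 (chr19:34550694-34576419), Ifit3 (chr19:34583531-34588731), Ifit3b (chr19:34607970-34613401) and Ifit1 (chr19:34640871-34650009) form a run on the plus strand, all lower. Gbp7 (chr3:142530342-142550149), Gbp3 (chr3:142560026-142573209) and Gbp2 (chr3:142620602-142638008) form another, and Gbp6 and Gbp9 lie together on chromosome 5. Cxcl3 (chr5:90786103-90789600) and Cxcl2 (chr5:90903871-90905938) were both lower, as were Fpr1 (chr17:17876471-17883940) and Fpr2 (chr17:17887824-17893952), Il1b (chr2:129364570-129371139) and Il1a (chr2:129299610-129309972), and Rsad2 (chr12:26442746-26456452) and Cmpk2 (chr12:26469204-26479837). Lsp1 (chr7:142460809-142494867) and Cdkn1c (chr7:143458339-143461050) were the only such pair among the higher genes. Whether reads were shared between related neighbours was not tested.

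How firmly a call held differed widely between genes. Cxcl3, Acod1, Cxcl2, Ptges, Il1b, Nos2 and Inhba passed in each of the alternative settings in which they were tested, including each glass alone against cpTi. Of these, Nos2 had reached the filter through the cpTi libraries alone. When 1 library was left out in turn, 21 of the 91 lower genes passed in all 9 fits, among them also Tnf, Tlr2, Cd38, Lox, Slc7a11, Ifit2 and Rsad2, all of which lost their calls with a common FPKM total. Leaving out cpTi replicate 1 left 21 lower and 2 higher genes. None of the 100 genes changed direction in any of the 21 alternatives.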

How the data were processed

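RNA of mouse bone marrow-derived macrophages was sequenced after 48 h on each of 3 metals, in 3 libraries per metal. Per the labels, polyA RNA was extracted with TRIzol and prepared with a NEBNext Ultra kit. Per the submitters' processing notes, the build was GRCm38 (mm10) and the tools named were DESeq2 1.20.0, featureCounts 1.5.0-p3, HISAT2 2.0.5, CASAVA 1.8 and fastp. The role of each tool and the strand setting are not given in the sources used here. The authors deposited FPKM per gene, on a library scale of 9078170 to 21911078 that differs from the read totals. FPKM times gene length gave whole reads within 0.05 for 100% of values, with totals of 15517877 to 18689963 reads. Columns were tied to materials by composition, and the pooled result does not depend on which glass is which.

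The filter of 1 FPKM in 3 libraries left 10858 genes. The fit to log2(FPKM + 1) was made by limma 3.58.1 (R 4.3.3) with a mean-variance trend, 6 glass against 3 cpTi libraries, a two-sided moderated test and Benjamini-Hochberg adjustment over these genes, called under 0.05. The fit was also run on simulated data in which genes varied independently. As these lacked the library component that holds 72.0% of the variance here, they cannot show how the fit behaves under it. For library shares, exact permutation tests (two-sided) were run in SciPy 1.17.1. Alternatives were 3 group means, each glass alone, other filters, a pseudocount of 0.1, a common FPKM total and a replicate block. Others were robust spread, voom on rebuilt reads, leaving out libraries, and a covariate for the slope of each library's levels on gene length. The gene lists and members were chosen with earlier results of these data known.

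Genes named were, in each direction, the 10 called coding genes with the largest fold changes whose groups did not overlap and whose higher group averaged at least 5 FPKM. To these were added up to 3 called members of each list with at least 2, up to 3 called non-coding genes, and a fixed set given whatever its p (Actb, Gapdh, Adgre1, Csf1r, Spp1, Acp5, Vegfa, Osm, Bmp2, Slc30a1, Hmox1, Mt2, Mt1, Tgfb1, Cd86, Mrc1, Arg1, Nos2, Il10, Il6, Il1b and Tnf). Other genes were named after their values were seen. Promoter sequences are from RefSeq.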

Additional observations from a re-analysis of the deposited data

Results flagged for a closer look

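Among 64 values screened over the 6 glass libraries, 7 had a library far from the rest, where chance flags about 1 in 20. Ta3 replicate 2 gave 4 of them. It had 4.69 FPKM of Nfkbie (2.24 to 2.92 in the others), 12.1 FPKM of Irf1 (8.79 to 9.75), 117 FPKM of Arg1 (372 to 741) and 11.9 FPKM of Slc30a1 (6.91 to 8.42). Cdkn1c reached 28.5 FPKM in Ta0 replicate 1 (17.1 to 20.6 in the others). Gapdh reached 17.8 FPKM in Ta3 replicate 1 (1.36 to 2.41), and Bmp2 was at 0 FPKM in Ta3 replicate 3 (1.08 to 2.03).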

How the results depend on the processing

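The main counts were 91 lower and 9 higher genes. Each glass alone against cpTi gave 29 lower and 4 higher genes (Ta0) and 7 lower and 0 higher (Ta3). A filter of 5 FPKM gave 59 lower genes. With the length slope of each library (how its levels leaned on gene length) as a covariate, 318 genes were lower and 133 higher. A common FPKM total gave 20 lower and 1 higher, and leaving out Ta0 replicate 1 with Ta3 replicate 3 gave 5 higher. With 1 library left out, the lower genes ranged over 21 to 88 and the higher over 2 to 10. The fit with a replicate block gave 35 lower and 2 higher genes. The numbers share no stated animal or batch and a library matched its own number best in 5 of 18 pairings, so this pairing rests on a number only. The difference in the mitochondrial share was -0.532 points without Ta0 replicate 1 and Ta3 replicate 3, and -0.799 to -0.449 points with 1 library left out. Its call was lost in 5 of the 6 fits without a glass library, and without a cpTi library the exact test cannot go below p = 0.0714. Directions turned for genes not past the threshold: with a common FPKM total Actb was at -0.0588, Tgfb1 at -0.22, Mrc1 at -0.24 and Slc30a1 at -0.13. The median of all genes in that fit was -0.31. Tgfb1 was at -0.17 with Ta0 alone. With 1 library left out, Tgfb1 ranged from -0.0410 to 0.436, Mrc1 from -0.142 to 0.400 and Gapdh from -0.0291 to 0.570, below 0 without Ta3 replicate 2 or cpTi replicate 2 (Tgfb1), cpTi replicate 2 (Mrc1) and Ta3 replicate 1 (Gapdh). The cause was not tested. Among 42 named genes past the threshold, none changed direction. Of these, 6 lost their call in 3 group means, 7 with no filter, 3 with a pseudocount of 0.1, 1 with robust spread, 5 in voom, 12 without Ta0 replicate 1 and Ta3 replicate 3 and 29 with a common FPKM total. Hp lost it in all of these but the last, and Gpx3 in all but robust spread. With a pseudocount of 0.1 and in voom the fold changes were -3.83 and -5.09 for Nos2, -2.09 and -2.29 for Csf3, -4.58 and -2.19 for Gm22121 and -2.67 and -3.34 for Gm43181. Low genes such as Nos2 and Gm22121 are limited by depth.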
